A study of Homo sapiens with 6 samples.

Results

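Gene expression of the nuclear-encoded respiratory chain was examined in MDA-MB-231, a human triple-negative breast cancer cell line. The members were all gene symbols of the NDUFA, NDUFB, NDUFC, NDUFS, NDUFV, SDH, UQCR, COX4 to COX8 and ATP5 series, together with CYC1, whose mean over the 6 libraries was above 1 CPM, the count scaled to library size. Of 24462 symbols, 89 had such a name and 83 of these passed the limit, which were also 83 of the 12650 genes with enough counts to be tested. They comprised 36 genes of complex I, 4 of complex II, 10 of complex III, 12 of complex IV and 16 of complex V, and 5 that are not subunits. The lowest member, ATP5S, had a mean of 7.41 CPM, and the highest symbol outside the limit, COX6B2, had 0.361 CPM. COX6B2 and the other 5 symbols outside, COX4I2, COX6A2, COX7A1, COX7B2 and COX8C, include isoforms known from muscle, testis or lung. The latter 5 had 0 counts in all 6 libraries, where 3 counts correspond to between 0.616 and 0.982 CPM, a limit that covers counting error only.

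The cells were transfected with the negative control (NC) mimic, whose dose is not given in the labels, with the miR-200a mimic at 100 nM, or with the miR-200a mimic at 100 nM and 30 ng of an ELK3 expression plasmid. The third group, labelled miR-200a plus ELK3, is called ELK3-labelled here. The labels give the plasmid both as pcDNA3.1 Hygro(+)-ELK3 and as pcDNA3.1-Flag-ELK3. They name a plasmid in this group alone and none without ELK3. In both comparisons of this group, ELK3 and the transfection of plasmid DNA therefore cannot be told apart. RNA was taken after 48 h, and each of the 3 groups had 2 libraries of QuantSeq, an assay that reads each polyadenylated RNA near its 3′ end. The labels do not say that the replicates were separate cultures, so p-values measure only the spread between these libraries, which may be technical. The test shared the spread of each gene over the 3 groups, whose replicates differed unequally. Chi-square per degree of freedom between replicates was 2.38 with the NC mimic, 1.9 with miR-200a and 13.4 in the ELK3-labelled group. The p-values of comparisons with the latter group may therefore be too small. Library totals were between 3055915 and 4868004 counts.

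ELK3, the gene carried by the plasmid, had 138 and 166 CPM with the NC mimic, 102 and 103 CPM with miR-200a, and 96.2 and 79.2 CPM in the ELK3-labelled libraries. Against miR-200a, ELK3 in the latter group had a log2 fold change of -0.23 (adjusted p = 0.354, edgeR). Against the NC mimic its counts in that group fell, with a log2 fold change of -0.79 (adjusted p = 0.0117, edgeR). With miR-200a alone the value against the NC mimic was -0.56 (adjusted p = 0.232, edgeR). The study describes the plasmid as carrying ELK3 without its complete 3′UTR, and QuantSeq reads RNA near the 3′ end, so whether these counts include ELK3 made from the plasmid cannot be told and they check neither the transfection nor the label. By qRT-PCR and Western blot, the study reported that ELK3 mRNA and protein returned to the control level when the plasmid was added to miR-200a. It does not say whether the RNA of these libraries was used. The group is named by its label throughout. Of the markers of the cell line, VIM had 956 to 2460 CPM and CD44 had 195 to 337 CPM, whereas ESR1 had 0 counts and PGR 0 or 1 count in each library. The epithelial markers CDH1 and ESRP1 had at most 12 and 5 counts in a library, and ERBB2 had 99 to 232 counts. ZEB1, a repressor of epithelial genes that the miR-200 family is known to target, had 129 and 112 CPM with the NC mimic, 94.5 and 83.3 CPM with miR-200a, and 91.2 and 114 CPM in the ELK3-labelled libraries, with no call in any comparison (adjusted p = 0.358 to 0.426, edgeR).

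The respiratory chain of the inner mitochondrial membrane passes electrons from NADH and succinate to oxygen through complexes I to IV, and complex V, the ATP synthase, uses the resulting proton gradient to make ATP. Most subunits are encoded in the nucleus and imported, while a few core subunits are encoded by mitochondrial DNA and are not analysed here. Promoters of the nuclear genes are known for binding sites of NRF1, of the ETS factor GABP and of YY1, and the coactivator PGC-1α (PPARGC1A) raises their transcription in many tissues. ELK3 is itself a transcription factor of the ETS family.

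The sequences below are those of the mimic and of the promoters of 3 genes on which the results turn. The mature miR-200a-3p (RefSeq, GRCh38.p14, chr1:1167916-1167937, plus strand) is shown with its seed, bases 2 to 8, in capitals.
hsa-miR-200a-3p: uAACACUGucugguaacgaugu
The letters that pair with this seed, CAGTGTT, were found in the annotated 3′UTR of 7 of the 81 members that have one (8.64%), against 2223 of 11529 tested genes (19.3%). The members have short 3′UTRs, with a median of 221 nt against 1081 nt over all tested genes. The members with a match were NDUFA9, NDUFB5, NDUFV3, SDHC, SDHD, COX7C and ATP5L. In the selected transcripts the 3′UTR of SDHC had 12907 nt, and that of ATP5L had 753 nt.

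The promoters run from 250 bases before to 50 bases after the annotated start (RefSeq, GRCh38.p14, 5′ to 3′ on the strand of the gene). NDUFS6 (chr5:1801157-1801456, plus strand) and ATP5G1 (chr17:48892537-48892836, plus strand) are shown as the 2 members with the smallest adjusted p in each comparison of the ELK3-labelled libraries, and UQCRQ (chr5:132866392-132866691, plus strand) because it was the called gene whose promoter held the ETS-type letters. Capitals mark GCGCATGC (NRF1-type) in NDUFS6 and CCGGAAGT (ETS-type) in UQCRQ.
NDUFS6: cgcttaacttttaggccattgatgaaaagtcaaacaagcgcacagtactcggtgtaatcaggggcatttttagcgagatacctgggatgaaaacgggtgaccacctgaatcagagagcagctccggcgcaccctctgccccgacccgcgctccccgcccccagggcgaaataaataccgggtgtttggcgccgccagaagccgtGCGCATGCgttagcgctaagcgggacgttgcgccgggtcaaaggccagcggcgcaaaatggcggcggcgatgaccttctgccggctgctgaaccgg
UQCRQ: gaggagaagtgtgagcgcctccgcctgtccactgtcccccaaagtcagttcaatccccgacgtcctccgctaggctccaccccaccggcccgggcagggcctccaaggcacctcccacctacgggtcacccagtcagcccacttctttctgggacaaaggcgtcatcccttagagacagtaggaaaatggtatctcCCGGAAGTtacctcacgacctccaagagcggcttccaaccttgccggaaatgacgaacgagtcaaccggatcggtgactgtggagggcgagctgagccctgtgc
ATP5G1: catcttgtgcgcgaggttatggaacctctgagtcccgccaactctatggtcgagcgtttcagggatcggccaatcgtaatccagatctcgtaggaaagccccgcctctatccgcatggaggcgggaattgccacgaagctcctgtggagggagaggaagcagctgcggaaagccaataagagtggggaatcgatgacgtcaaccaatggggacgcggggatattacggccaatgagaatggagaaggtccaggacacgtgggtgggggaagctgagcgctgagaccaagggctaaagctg
The match in NDUFS6 begins at position -46 and that in UQCRQ at -54 from the start. None of the letters searched was found in the window of ATP5G1. A promoter was found for 64 of the 83 members, and the first start listed was used where a gene had several. On either strand, the ETS-type letters CCGGAAGT were in 9 of these (14.1%) against 4.44% of all 27305 promoters, the NRF1-type letters GCGCATGC in 13 (20.3%) against 3.27%, and the YY1-type letters AAGATGGC in 11 (17.2%) against 3.03%. Among the other called genes, NDUFA6 held the NRF1-type letters at -166 and the YY1-type letters at 25, and NDUFA7 and ATP5O held the YY1-type letters at 14 and 38. These matches are letters in a window, and binding was not measured. The 27305 promoters were not limited to tested genes, while the members had passed an expression limit. The shares therefore do not compare the members with other expressed genes.

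The comparison of miR-200a with the NC mimic asks what the mimic alone did. None of the 83 members rose or fell in edgeR's quasi-likelihood test (adjusted p under 0.05), where 0.213% of all tested genes were called higher and 0.0553% lower. DESeq2 also called 0 members, beside 68 of all tested genes higher and 20 lower. At an unadjusted p under 0.05, DESeq2 had 3 members higher and 2 lower. With edgeR, 5 members were higher at that threshold (6.02%, against 5.13% of all tested genes) and 2 were lower (2.41%, against 4.11%). The log2 fold changes of the members ranged from -0.49 to 0.52 with a median of -0.05, against -0.02 over all tested genes. The values of the 2 groups did not overlap in 14 members that were higher (16.9%, against 22.9% of all tested genes) and 29 that were lower (34.9%, against 26.1%).

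The 5 members past the unadjusted threshold and higher with miR-200a were NDUFA2, NDUFA7, UQCRC2, ATP5O and ATP5SL. UQCRC2, a core protein of complex III, had 73.5 and 81.9 CPM with the NC mimic and 103 and 111 CPM with miR-200a (log2 fold change 0.46, standard error 0.14, adjusted p = 0.302, edgeR). The 2 members on the lower side were NDUFV3 and ATP5G2. NDUFV3, an accessory subunit at the NADH-oxidizing end of complex I, had 96.4 and 96.6 CPM with the NC mimic and 69.6 and 68.1 CPM with miR-200a, without overlap (log2 fold change -0.49, standard error 0.17, adjusted p = 0.401, edgeR). ATP5G2, which encodes the c subunit of the ATP synthase rotor, had 415 and 408 CPM and then 297 and 302 CPM (log2 fold change -0.46, standard error 0.13, adjusted p = 0.286, edgeR). NDUFV3 holds a match to the seed of miR-200a and ATP5G2 does not. Over the 7 members with a match, the median log2 fold change was -0.06, with 5 negative and 2 positive values, and over the other 76 it was -0.05.

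This result depended on which libraries shared the estimate of spread. With only the 4 libraries of these 2 groups in the model, 6 members were called higher (ATP5O, ATP5SL, NDUFA2, NDUFA7, NDUFB3 and UQCRC2) and 3 lower (ATP5G1, ATP5G2 and NDUFV3), beside 588 and 395 genes in all. Leaving out replicate 1 or replicate 2 of the ELK3-labelled group also gave calls in both directions, among the members as over all tested genes. The median log2 fold change of the members was then -0.0399 and -0.0368.

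The ELK3-labelled libraries were then compared with those of miR-200a. Of the members, 9 rose (10.8%, against 7.03% of all tested genes) and 0 fell (against 5.91%) in edgeR's quasi-likelihood test. At an unadjusted p under 0.05, 24 members were higher (28.9%, against 16.5%) and 0 lower (against 14.1%). DESeq2 called 6 higher and 0 lower, beside 626 and 615 of all tested genes. The called members were ATP5G1, NDUFS6, NDUFV3, NDUFB2, ATP5L, NDUFA6, ATP5J2, NDUFB9 and UQCRQ, with rises of 1.36-fold to 2.11-fold. The groups did not overlap in 43 members that were higher (51.8%, against 30.2% of all tested genes) and in 3 that were lower (3.61%, against 28%). The median log2 fold change of the members was 0.17, against 0.02 over all tested genes, and 62 of the 83 values were positive.

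Against the NC mimic, 8 members rose (9.64%, against 6.92% of all tested genes) and 0 fell (against 5.95%). At an unadjusted p under 0.05, 21 members were higher (25.3%, against 16.2%) and 2 were lower (2.41%, against 14.5%), the latter being NDUFA4 and ATP5H. DESeq2 called 2 higher, ATP5G1 and NDUFS6, and 0 lower, beside 643 and 621 of all tested genes. With DESeq2 the share of members called higher thus lay below that of all tested genes. The members called by edgeR were NDUFS6, ATP5G1, NDUFB10, ATP5O, ATP5L, ATP5J2, NDUFA7 and ATP5L2. The groups did not overlap in 37 members that were higher (44.6%, against 29%) and 9 that were lower (10.8%, against 27.6%). The median log2 fold change was 0.18, against 0.01 over all tested genes, with 59 positive values. Both comparisons share the ELK3-labelled libraries, and ATP5G1, ATP5J2, ATP5L and NDUFS6 were called in each.

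**Figure D1:**
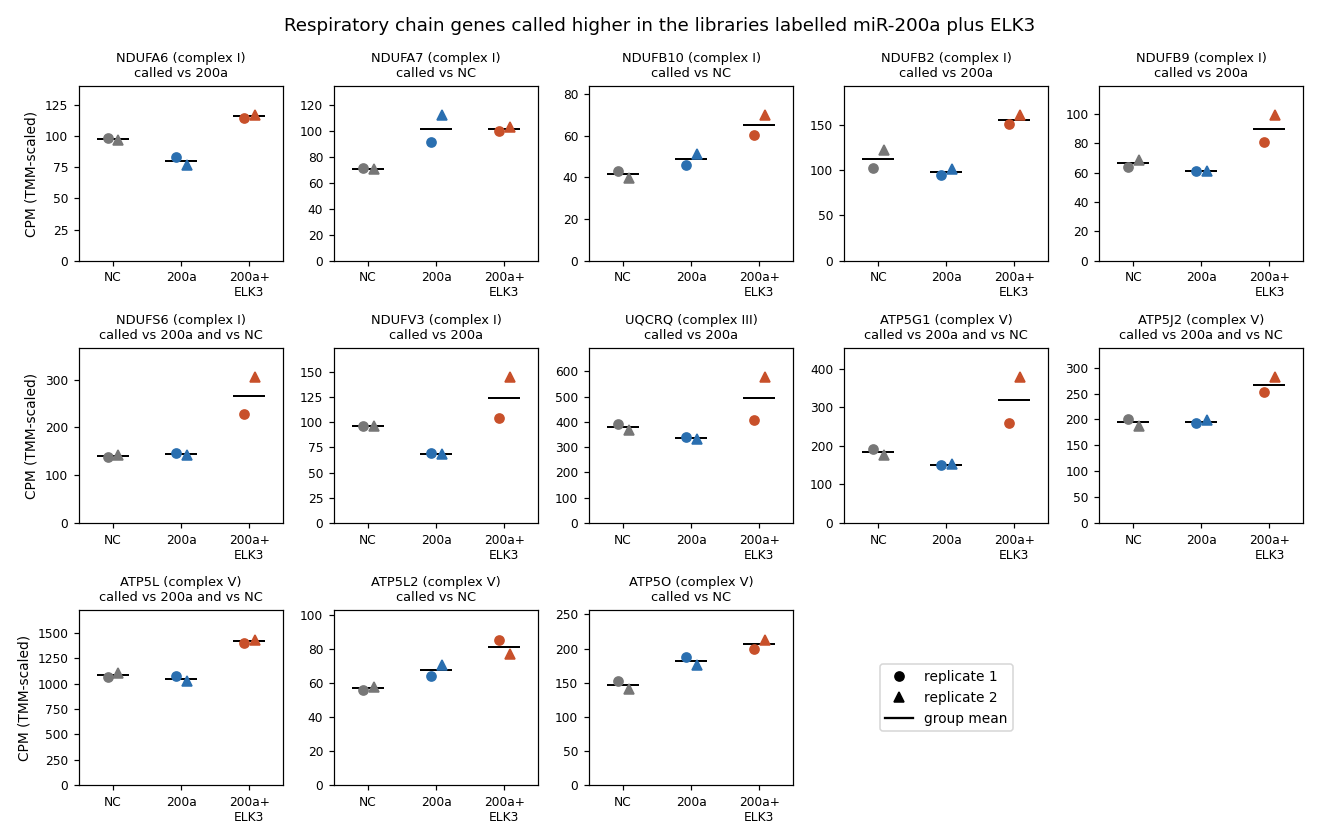
CPM of the 13 members called in either comparison of the ELK3-labelled libraries (y axis, from 0; NC is the NC mimic, 200a is miR-200a), with a circle for replicate 1, a triangle for replicate 2 and a line at the group mean. In NDUFS6 both libraries labelled miR-200a plus ELK3 (229 and 305 CPM) lie above all others, while NDUFA7 is as high with miR-200a as in that group.

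The called genes lost or kept their calls with the choice of libraries. Without replicate 2 of the ELK3-labelled group, the median log2 fold change of the members was 0.118 against miR-200a and 0.115 against the NC mimic. Over all tested genes it was -0.00953 and -0.00473. Without replicate 1 of that group the member medians were 0.182 and 0.192, against -0.0277 and -0.0165 over all tested genes. Both fits called more genes than the fit with all 6 libraries, among the members as over all tested genes. Without replicate 1, members called lower appeared in each comparison. Leaving out either miR-200a library removed the member calls against miR-200a, together with most calls over all tested genes. The same held for either NC mimic library in the comparison with the NC mimic. The member medians stayed positive, at 0.159 and 0.208 without miR-200a replicate 1 or 2, against miR-200a. They were 0.178 and 0.152 without NC mimic replicate 1 or 2, against the NC mimic. In each fit that left out a library, the lone library of a group was assumed to vary like the other groups.

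The members carried 1.42% and 1.45% of all counts with the NC mimic. The shares were 1.41% and 1.41% with miR-200a but 1.60% and 1.60% in the ELK3-labelled libraries. Both libraries of the latter group lay above the other 4, a difference of 0.186 percentage points from miR-200a and 0.161 from the NC mimic. The exact permutation test gave p = 0.333 for each (two-sided), the smallest that 2 against 2 libraries allow. In RNA from whole cultures, a change in the mix of cells and a change in RNA per cell cannot be told apart.

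**Figure D2:**
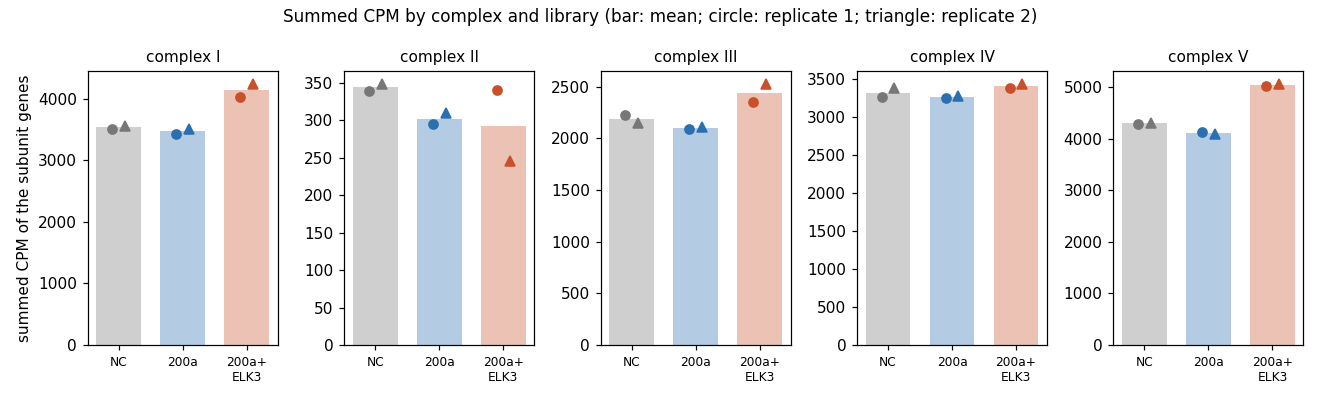
Summed CPM of the subunit genes of each complex (y axis, from 0) in the 3 groups, where bars are means, circles replicate 1 and triangles replicate 2. Complex V had 5021 and 5064 CPM in the ELK3-labelled libraries against 4093 to 4312 CPM in the other 4, and in complex II the replicates of that group lay apart, at 340 and 246 CPM.

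Complex I oxidizes NADH and passes the electrons to ubiquinone. Of its 36 genes, 5 (13.9%, against 7.03% of all tested genes) rose against miR-200a. Against the NC mimic 3 rose (8.33%, against 6.92%), near the share over all tested genes. The median log2 fold changes were 0.24 and 0.23. These medians stayed positive under each scaling and without either replicate of the ELK3-labelled group (0.12 to 0.35). The summed CPM of the 36 genes was 3510 and 3559 with the NC mimic, against 3423 and 3515 with miR-200a. It was 4031 and 4242 in the ELK3-labelled libraries.

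NDUFS6, a zinc-binding accessory subunit of the matrix arm (chr5:1801400-1816605, plus strand, GRCh38), had 139 and 142 CPM with the NC mimic, 147 and 143 CPM with miR-200a, and 229 and 305 CPM in the ELK3-labelled libraries. The first 4 libraries lay close together, and the latter pair was above all of them. NDUFS6 rose by 0.88 on the log2 scale against miR-200a (standard error 0.15, adjusted p = 0.00764, edgeR) and by 0.93 against the NC mimic (standard error 0.15, adjusted p = 0.00568, edgeR). In both comparisons its call was lost in 2 of the 15 alternative fits, those that left out a library of the reference group, and the same held for ATP5G1, NDUFB2 and NDUFV3 against miR-200a. The other calls were lost in 5 to 11 of the 15.

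NDUFV3, at 69.6 and 68.1 CPM with miR-200a, had 104 and 145 CPM in the ELK3-labelled libraries, above the 96.4 and 96.6 CPM of the NC mimic. It rose by 0.86 against miR-200a (standard error 0.17, adjusted p = 0.0132, edgeR), and against the NC mimic its log2 fold change was 0.37 (adjusted p = 0.168). NDUFA6, another accessory subunit of the matrix arm, had 98.2 and 96.6, 83 and 77.2, and 115 and 117 CPM in the 3 groups, in the same order, and rose by 0.53 against miR-200a (standard error 0.13, adjusted p = 0.029, edgeR). NDUFA7 had 71 and 70.2 CPM with the NC mimic but 91.4 and 112 CPM with miR-200a and 99.7 and 103 CPM in the ELK3-labelled libraries, so that it rose against the NC mimic alone (log2 fold change 0.52, standard error 0.15, adjusted p = 0.0473, edgeR), and its values in the latter groups overlapped. An exon of NDUFA7 overlaps RPS28 on the opposite strand, and strand use in the counting is not given in the sources used here. RPS28 had a log2 fold change of 0.07 (adjusted p = 0.794, edgeR) against the NC mimic.

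In the membrane arm, the accessory subunits NDUFB2 and NDUFB9 rose against miR-200a and NDUFB10 rose against the NC mimic. NDUFB2 had 103 and 122 CPM with the NC mimic, 94.5 and 101 CPM with miR-200a, and 151 and 161 CPM in the ELK3-labelled libraries, which lay above all others (log2 fold change 0.67 against miR-200a, standard error 0.14, adjusted p = 0.0163, edgeR). Its annotation overlaps other genes, among them the antisense NDUFB2-AS1, which had 4.57 to 14.2 CPM and a log2 fold change of 1.27 (adjusted p = 0.0432, edgeR). NDUFB9 had 61.2 and 60.9 CPM with miR-200a and 80.8 and 98.9 CPM in the ELK3-labelled libraries (log2 fold change 0.56, standard error 0.15, adjusted p = 0.0414, edgeR), and it overlaps MTSS1 and TATDN1 on the opposite strand. NDUFB10 had 43 and 39.8, 46.1 and 51.1, and 60.4 and 69.8 CPM in the order of the groups, with no overlap between any of them (log2 fold change 0.65 against the NC mimic, standard error 0.16, adjusted p = 0.03, edgeR).

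The core subunits of the matrix arm, which hold the flavin and the iron-sulfur clusters, had no call. NDUFV1, which binds NADH and the flavin, had 64.1 and 65.3 CPM with the NC mimic, 68.5 and 72.7 CPM with miR-200a, and 78.2 and 102 CPM in the ELK3-labelled libraries (adjusted p = 0.083 against the NC mimic, edgeR). NDUFS1, an iron-sulfur subunit, had 20.2 to 32 CPM and overlapped between all groups. At the negative end, NDUFB3 had 160 and 151 CPM with miR-200a but 176 and 60.2 CPM in the ELK3-labelled libraries, with replicate 1 above and replicate 2 below both miR-200a libraries (log2 fold change -0.40, adjusted p = 0.473, edgeR). NDUFB5 had a log2 fold change of -0.39 against the NC mimic (adjusted p = 0.2, edgeR).

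Complex II, the succinate dehydrogenase, links the citrate cycle to the chain and has no subunit encoded in mitochondrial DNA. None of its 4 genes was called, and its median log2 fold changes were -0.21 against miR-200a and -0.40 against the NC mimic. These medians turned with the libraries: without replicate 2 of the ELK3-labelled group they were 0.16 and -0.01, and without replicate 1 they were -0.79 and -0.97. SDHA, the flavoprotein, had 101 and 101 CPM with the NC mimic, 81 and 87 CPM with miR-200a, and 98.8 and 134 CPM in the ELK3-labelled libraries (log2 fold change 0.47 against miR-200a, adjusted p = 0.0857, edgeR). SDHD, a membrane anchor, had 39 and 51.9 CPM, 42.8 and 50.3 CPM, and 45.9 and 12.9 CPM in the same order (log2 fold change -0.66 against miR-200a, adjusted p = 0.312, edgeR). SDHB and SDHC were split in the same way, with 62.5 and 31 CPM for SDHB and 133 and 68.2 CPM for SDHC in the replicates of that group.

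Complex III passes electrons from ubiquinol to cytochrome c. Of its 10 genes, UQCRQ alone was called, in the comparison with miR-200a (10%, against 7.03% of all tested genes). The median log2 fold changes were 0.14 against miR-200a and 0.18 against the NC mimic. Without replicate 2 of the ELK3-labelled group they were 0.10 and 0.06, and with upper-quartile scaling 0.07 and 0.12. UQCRQ, a small subunit, had 390 and 366 CPM with the NC mimic, 340 and 330 CPM with miR-200a, and 409 and 576 CPM in the ELK3-labelled libraries. It rose by 0.56 against miR-200a (standard error 0.16, adjusted p = 0.0425, edgeR), and GDF9 overlaps it on the opposite strand. The catalytic subunits CYC1 (cytochrome c1) and UQCRFS1 (the Rieske iron-sulfur protein) had log2 fold changes of 0.36 and 0.45 against miR-200a (adjusted p = 0.114 and 0.082, edgeR). At the ends of the range, UQCRC1 had -0.16 against miR-200a, and UQCRC2 had 0.42 and UQCRHL -0.31 against the NC mimic. UQCRHL is a near copy of UQCRH and UQCRBP1 a pseudogene of UQCRB, so reads may be split within these pairs. The sums of the pairs were 268 to 291 CPM and 928 to 1055 CPM.

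Complex IV, the cytochrome c oxidase, had 12 members and no call, with medians of 0.10 against miR-200a and 0.05 against the NC mimic. The second median turned negative, at -0.01 with upper-quartile scaling, -0.04 with a GC correction and -0.01 without replicate 2 of the ELK3-labelled group. COX4I1, the largest nuclear-encoded subunit, had 334 and 309, 296 and 316, and 326 and 483 CPM in the order of the groups (log2 fold change 0.40 against miR-200a, adjusted p = 0.14, edgeR). NDUFA4, which was named for complex I but is a subunit of complex IV, had 322 and 345, 309 and 318, and 298 and 231 CPM (log2 fold change -0.34 against the NC mimic, adjusted p = 0.136, edgeR), and its lowest libraries were those labelled miR-200a plus ELK3. COX7A2L, a supercomplex factor, had 146 and 85.1 CPM in the latter libraries (log2 fold change -0.39 against miR-200a, adjusted p = 0.259, edgeR). Of the COX7A isoforms, COX7A2 had 203 to 221 CPM in all 6 libraries and COX7A1 had 0 counts.

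**Figure D3:**
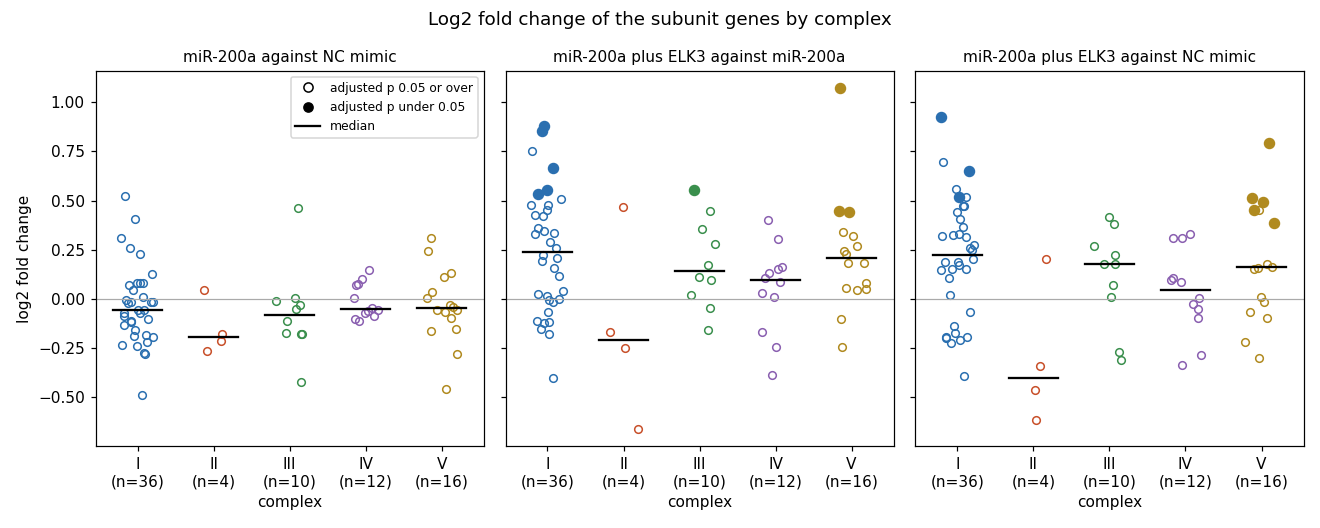
Log2 fold change of each subunit gene (y axis) by complex (x axis) in the 3 comparisons, with filled points for an adjusted p under 0.05 and a line at the median. Filled points occur in complexes I, III and V, with none in complexes II and IV, and the left panel has none.

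Of the 16 genes of complex V, 3 rose against miR-200a (18.8%, against 7.03% of all tested genes). Against the NC mimic 5 rose (31.2%, against 6.92%), among them ATP5L and its near copy ATP5L2. The complex had medians of 0.21 and 0.16. The second was 0.10 with upper-quartile scaling, 0.05 without replicate 1 of the ELK3-labelled group and 0.24 without replicate 2. The first was 0.14, 0.14 and 0.16 in these fits. Its summed CPM was 4289 and 4312 with the NC mimic, against 4129 and 4093 with miR-200a. It was 5021 and 5064 in the ELK3-labelled libraries, so that the replicates lay closer together than the groups. The catalytic F1 subunits did not pass the test, with log2 fold changes of 0.18 for ATP5A1 (adjusted p = 0.364) and 0.05 for ATP5B (adjusted p = 0.835) against miR-200a (edgeR). The called genes encode the rotor, the membrane part and the stalk.

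ATP5G1, ATP5G2 and ATP5G3 encode the same mature c subunit of the rotor from precursors with different import sequences. ATP5G1 (chr17:48892765-48895871, plus strand, GRCh38) had 191 and 175 CPM with the NC mimic, 150 and 152 CPM with miR-200a, and 259 and 377 CPM in the ELK3-labelled libraries, without overlap between the groups. It rose by 1.07 against miR-200a (standard error 0.17, adjusted p = 0.00587, edgeR) and by 0.79 against the NC mimic (standard error 0.17, adjusted p = 0.0168, edgeR). ATP5G2 did not follow it and had 312 and 396 CPM in the ELK3-labelled libraries, between the levels of miR-200a and the NC mimic (log2 fold change 0.24 against miR-200a, adjusted p = 0.254, edgeR). ATP5G3 had 502 and 550, 499 and 506, and 639 and 538 CPM, and its value against miR-200a was 0.23 (adjusted p = 0.238, edgeR). The difference between these 3 genes was not tested. Their summed CPM was 1108 and 1133, 946 and 960, and 1210 and 1312.

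Among the small membrane subunits, subunit g is encoded by ATP5L (chr11:118401154-118431496, plus strand, GRCh38). It had 1065 and 1108 CPM with the NC mimic, 1070 and 1020 CPM with miR-200a, and 1404 and 1433 CPM in the ELK3-labelled libraries, whose replicates differed by a ratio of 1.02. It rose by 0.44 against miR-200a (standard error 0.10, adjusted p = 0.0231, edgeR) and by 0.38 against the NC mimic (standard error 0.10, adjusted p = 0.036, edgeR). Its near copy ATP5L2, with 56.1 and 57.8 CPM with the NC mimic and 85.5 and 77.1 CPM in the ELK3-labelled libraries, rose by 0.51 (standard error 0.15, adjusted p = 0.0483, edgeR), and how reads were divided between these genes is not given in the sources used here.

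ATP5J2 (subunit f, chr7:99448475-99466331, minus strand, GRCh38) had 202 and 188, 192 and 199, and 253 and 281 CPM in the order of the groups, and the latter pair was above the other 4. It rose by 0.45 in each comparison (standard error 0.12, adjusted p = 0.0397 and 0.0378, edgeR). ATP5J2-PTCD1, a read-through of ATP5J2 and PTCD1, had the same counts as PTCD1 in 4 of the 6 libraries and differed from them by 1 count in the other 2, so its 80.3 to 143 CPM are not separate from those of PTCD1. ATP5O, which joins the peripheral stalk to F1, had 152 and 141 CPM with the NC mimic, 188 and 176 CPM with miR-200a, and 199 and 213 CPM in the ELK3-labelled libraries (log2 fold change 0.49 against the NC mimic, standard error 0.13, adjusted p = 0.0312, edgeR). ATP5H, also of the stalk, had the most negative values of complex V, -0.24 and -0.30 (adjusted p = 0.243 and 0.161, edgeR).

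The replicates of the ELK3-labelled group differed more than those of the other groups. Their CPM differed by more than 1.5 times in 11 members, against 0 in each of the other groups. These were 2 higher and 9 lower in replicate 2, while of all tested genes 10.9% were higher and 15.4% lower in this group, 6.15% and 6.65% with the NC mimic, and 5.38% and 4.9% with miR-200a. In replicate 2, ATP5S and NDUFA13 were higher, and COX6C, COX7A2L, NDUFB3, NDUFB5, NDUFB6, SDHB, SDHC, SDHD and UQCRHL were lower, with SDHD at 0.281 of its CPM in replicate 1. None of these 11 was among the called members, whose ratios were 0.902 to 1.46. A wide split between replicates itself makes a call less likely, so this does not show that the calls were free of it. The root mean square of the log2 ratios was 0.464, against 0.156 and 0.147 for the NC mimic and miR-200a.

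The ratio moved with base composition. Across the 83 members, which share their libraries and are not independent replicates, its log2 value had a Pearson correlation of 0.505 (Spearman 0.575) with the GC content of the last 500 transcript bases, against -0.177 and 0.0694 in the other groups, and 0.312 over all tested genes with a value. The 9 members lower in replicate 2 had a median GC content of 40%, against 46.7% in the 72 that stayed within 1.5 times. With each library corrected for GC content, a choice made after seeing the data, 11 members were called higher against miR-200a and 7 against the NC mimic. None was called lower in either. Of the 12329 tested genes with a GC value, 1013 were called higher and 921 lower against miR-200a. Against the NC mimic these were 1016 and 863, so the 7 of 83 members lay near the share over these genes. Of the calls named above, ATP5J2 was lost in both comparisons and NDUFA7 against the NC mimic. VIM also differed between the replicates of the ELK3-labelled group, with 1850 and 956 CPM, and its GC content is not given here. The part of base composition in these results was not tested beyond this correction.

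**Figure D4:**
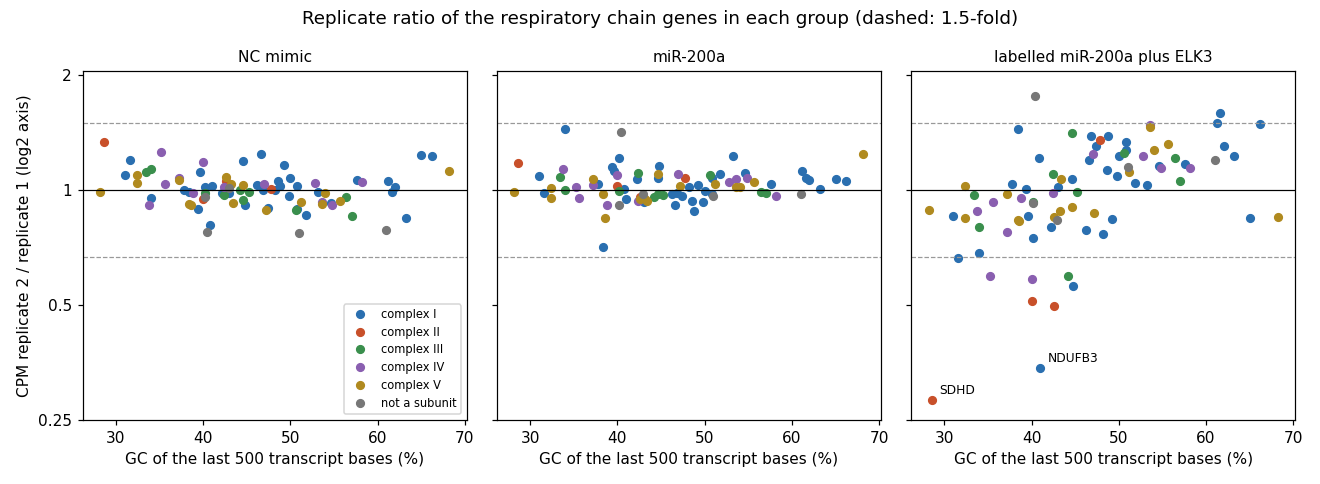
Ratio of CPM in replicate 2 to that in replicate 1 (y axis, log2 scale) against the GC content of the last 500 transcript bases (x axis, in %) for the 83 members in each group, coloured by complex, with dashed lines at 1.5-fold. With the NC mimic and miR-200a all points lie between the dashed lines, and in the ELK3-labelled group SDHD (0.281) and NDUFB3 (0.342) lie lowest.

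Other genes of mitochondrial energy metabolism were described from lists of the pathway, and none of them held a call when miR-200a was compared to the NC mimic. Their counts below stand beside 7.03% of all tested genes called higher and 5.91% lower against miR-200a, and 6.92% and 5.95% against the NC mimic. Of 5 subunits or carriers outside the symbol pattern, CYCS, which encodes cytochrome c, rose in both other comparisons. It had 132 and 139, 141 and 139, and 238 and 182 CPM in the order of the groups (log2 fold change 0.59 against miR-200a, adjusted p = 0.0309, and 0.63 against the NC mimic, adjusted p = 0.0241, edgeR). Of 48 assembly factors, 7 (14.6%) rose and 0 fell against miR-200a, with a median of 0.35, and 8 (16.7%) rose and 1 (COA5, 2.08%) fell against the NC mimic, with a median of 0.27. SDHAF2, which attaches the flavin to SDHA, had 38.1 and 34.6, 31.1 and 32.4, and 59.2 and 61.6 CPM, and rose by 0.93 against miR-200a (adjusted p = 0.00791, edgeR). TACO1, a translational activator of the mitochondrial COX1 message, rose by 1.14 (adjusted p = 0.014, edgeR).

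Of 19 regulators of mitochondrial biogenesis, 3 (15.8%) rose and 1 (5.26%) fell against miR-200a, and 3 (15.8%) rose and 2 (10.5%) fell against the NC mimic, the 1 lower against miR-200a being near the share over all tested genes. The coactivator gene PPARGC1A was read 23 and 26 times under the NC mimic, 36 and 43 times under miR-200a, and 5 and 8 times in the ELK3-labelled libraries, and fell by 2.38 against miR-200a (standard error 0.45, adjusted p = 0.011, edgeR). Its relative PPRC1 had 30.7 and 29.3 CPM with miR-200a and 57.1 and 50.8 CPM in the ELK3-labelled libraries, and rose by 0.84 (adjusted p = 0.0147, edgeR). NRF1 and GABPA, which encode factors of the promoter sites above, had log2 fold changes of 0.22 (adjusted p = 0.679) and -0.09 (adjusted p = 0.86) in this comparison (edgeR). SSBP1, which binds single-stranded mitochondrial DNA, rose by 0.48 against miR-200a (adjusted p = 0.025) and by 0.60 against the NC mimic (adjusted p = 0.0112, edgeR).

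Of 14 citrate cycle genes, SUCLG1 rose and SUCLG2 fell in both comparisons, and IDH3A rose against the NC mimic. These are 7.14% higher and 7.14% lower against miR-200a, near the shares over all tested genes, and 14.3% and 7.14% against the NC mimic. SUCLG1 and SUCLG2 encode the shared and the GTP-specific subunit of succinyl-CoA ligase. SUCLG1 had 138 and 140 CPM with miR-200a and 199 and 251 CPM in the ELK3-labelled libraries (log2 fold change 0.69, adjusted p = 0.0147, edgeR), and SUCLG2 had 86 and 88 CPM and then 59.2 and 42.3 CPM (log2 fold change -0.78, adjusted p = 0.0211, edgeR). Of 77 genes of the mitochondrial ribosome, which translates the messages of mitochondrial DNA, 18 (23.4%) rose against miR-200a and 14 (18.2%) against the NC mimic and 0 fell in either, with medians of 0.39 and 0.37. MRPS12 had 41.9 and 33.6, 44.4 and 40.8, and 68.4 and 84.1 CPM, and rose by 0.84 and by 1.01 (adjusted p = 0.0162 and 0.00835, edgeR).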

How the data were processed

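RNA of 6 libraries (QuantSeq 3′ mRNA, MDA-MB-231) was analysed. Raw, unnormalized counts for each gene symbol were deposited. The submitters' processing notes name Bowtie2, edgeR and hg19 without roles or versions, and the methods name ExDEGA. The counting program, annotation and strand setting are not given in the sources used here. Groups and replicate numbers came from the sample labels.

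Each library listed 25737 lines and 24462 symbols, and lines sharing a symbol (286 symbols, no member) were summed. Lines without a symbol held 0 counts. The tests used edgeR 4.0.16 under R 4.3.3 (TMM, filterByExpr with a minimum count of 10, quasi-likelihood test, all 6 libraries in 1 model with 3 residual degrees of freedom). CPM are TMM-scaled, fold changes are log2 unless called folds, and p-values were adjusted by Benjamini-Hochberg over 12650 genes. Called, rose and fell mean an adjusted p under 0.05. The script was tested on simulated data. Summed shares were compared by an exact permutation test.

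Alternatives were upper-quartile scaling, DESeq2 1.42.0, no filter, at least 10 counts in each library, only the 2 compared groups, a replicate block, limma 3.58.1 on quantile-normalized log2(count + 1), leave-one-out fits and the study's criteria (p under 0.05, fold over 1.5, normalized data over 3, taken as the mean log2 normalized count). A lowess GC correction and a crossed block were added after seeing the data.

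Named genes were the called members, the members with the largest positive and negative log2 fold change of each complex in the comparisons of the ELK3-labelled libraries, catalytic subunits, isoform pairs, ELK3 and ZEB1, and up to 4 called genes of each other list. The members past the unadjusted threshold alone, those whose replicates differed by more than 1.5 times, SDHC, and NRF1 and GABPA were chosen after their values were seen. The members and lists were chosen with earlier results of these data known. Gene positions, 3′UTRs and GC content came from GENCODE release 29 (GRCh38), in which 21874 symbols matched directly and 703 through an older symbol.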

Additional observations from a re-analysis of the deposited data

How the results depend on the processing

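The 17 calls of single members had passed the test in these same data, with groups that did not overlap. A reversed direction was therefore unlikely from the start. Each call was followed through 15 alternative fits, which share libraries, giving 255 values. All of these values kept the direction of the call, and 112 lost the call. The count over all tested genes, which also moved with the fit, stands in brackets where given. Against miR-200a, the 9 members called higher in the ELK3-labelled libraries became 5 with upper-quartile scaling, 4 with only the 2 compared groups, 5 with limma, 5 under the study's criteria, and 0 to 33 over the leave-one-out fits. The 0 called lower became 1 (SDHD) without a filter on low counts and 0 to 12 over the leave-one-out fits. Against the NC mimic, the 8 called higher became 3 with upper-quartile scaling, 2 with DESeq2, 15 without a filter, 1 with only the 2 compared groups, 5 with limma, 4 under the study's criteria, and 0 to 29 with leave-one-out, while the 0 called lower became 2 without a filter and 0 to 13. Between miR-200a and the NC mimic, the 0 called higher (27) and 0 called lower (7) became 6 (588) and 3 (395) with only the 2 compared groups. In the leave-one-out fits the counts also moved in each comparison, among the members as over all tested genes, with members called lower in some.

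Libraries sharing a number did not deviate together (correlation across 12650 genes -0.00215, -0.037 and -0.116 for the 3 pairs of groups), so the replicate numbers were not taken as a pairing. With the replicate block, 4 members were called higher against miR-200a (ATP5G1, NDUFB2, NDUFS6 and NDUFV3), 2 against the NC mimic (ATP5G1 and NDUFS6) and 0 in the first comparison, with 0 lower in each. Over all tested genes, the replicate block called 598 higher against miR-200a and 598 against the NC mimic. The block with the numbers of the ELK3-labelled libraries crossed gave 11 and 10 members higher, beside 880 and 873 of all tested genes.

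The median log2 fold change of the members stayed positive in both comparisons of the ELK3-labelled libraries under all alternatives tried. It moved from 0.17 to 0.10 with upper-quartile scaling and to 0.090 with limma against miR-200a (leave-one-out 0.12 to 0.21), and from 0.18 to 0.12 with upper-quartile scaling and to 0.12 with limma against the NC mimic (leave-one-out 0.11 to 0.19). The summed shares kept their direction under all their alternatives. For the ELK3-labelled libraries this was nearly set in advance, as each of them lay above all libraries of the other groups. The cause of these changes was not tested. With upper-quartile scaling, 622 of all tested genes were called higher and 882 lower against miR-200a, in place of 889 and 748, and 677 and 902 in place of 876 and 753 against the NC mimic. With 2 libraries a group, the spread rests on 3 residual degrees of freedom.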
